A study of Mus musculus with 6 samples.

Results

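The Cyp2 family of cytochrome P450 genes was examined in the livers of male C57BL/6J mice on a choline- and folate-deficient (CFD) diet, set against the livers of mice on a control diet. Members were the array probes, other than control spots, whose gene name in the scanner files starts with Cyp2 followed by a subfamily letter and a digit. They came to 53 probes for 34 genes, of 27962 genes named on the array. The mice were 8 weeks old when the diets began and 20 weeks old at 12 weeks of diet, when the liver was frozen. The CFD diet held 0.17% methionine and neither choline nor folic acid. The control diet shared its iron-supplemented, amino-acid-defined base and added methionine (0.4%), folic acid (2 mg/kg) and choline bitartrate (0.3%). Each group had 3 arrays, CFD livers and control livers alike. The labels do not state whether the arrays of a group came from different mice, so p-values rest on the spread among these arrays, part of which may be technical.

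Cytochromes P450 are haem enzymes that insert an oxygen atom into their substrates, using electrons passed on from NADPH by P450 reductase. The Cyp2 family is the largest P450 family of the mouse and lies mostly in clusters of closely related genes. In liver its members oxidize drugs, solvents, steroids, bile acids and fatty acids such as arachidonic acid, and several are known for a bias towards females or males that is set by the pattern of growth hormone release. The members were not sorted by that sex bias, which is named below for some genes only. Its part in their changes was not tested.

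RNA was measured in a single colour, and values are given as relative signal, the background-subtracted signal of a probe divided by the array's 75th percentile over all probes that are not controls. Relative signals compare arrays for a given probe and not a gene with another gene. Of 41174 probes, 23584 to 29044 stood well above background on CFD arrays, against 21689 to 26269 on control arrays, and 0 spots were saturated. Log2 signals correlated at 0.982 to 0.990 between CFD arrays and 0.990 to 0.993 between control arrays, against 0.913 to 0.951 between a CFD and a control array. Precision is limited by having 3 arrays in each group.

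Most of the Cyp2 genes fell on the CFD diet. Of the 34 genes, 32 were tested, having a probe that stood well above background on every array of a group. In limma's fit over all tested genes, 23 of the 32 (71.9%) were lower on the CFD diet and 6 (18.8%) were higher at an adjusted p below 0.05. In whole liver, fewer cells of a type and less RNA per cell cannot be told apart. Of all 15908 genes tested, 27.4% were lower and 23.7% were higher, and 51.1% were called in either direction. Over all genes these were 4353 lower and 3775 higher, and with arrays scaled to their median 5814 lower and 2934 higher. Of the lower Cyp2 genes, 18 were at least 2-fold lower and 10 at least 4-fold lower, where 9.77% and 1.99% of all genes met those limits. Of the higher ones, 4 were at least 2-fold higher, where 14.8% of all genes were. Cyp2c65 and Cyp2c66, among those 4, passed the filter on dim probes only through the CFD arrays, so their calls are no support for a rise. Of the 30 tested Cyp2 genes well above background on all 6 arrays, 23 were lower and 4 higher. The shares of all genes under that filter are not given here. The median log2 fold change was -1.05 for the 32 Cyp2 genes and -0.11 for all tested genes. That second median was -0.31 when arrays were scaled to their median and -0.034 after quantile normalization, so changes are relative to the scaling, and the Cyp2 median was -1.25 and -0.86 under those settings.

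The 3 tested genes without a call were Cyp2a12, Cyp2d26 and Cyp2e1. Cyp2b19 and Cyp2j11 were not tested. The probes of Cyp2b19 were well above background on at most 2 CFD arrays and 1 control array, and those of Cyp2j11 on at most 1 array of each group. The values of the groups did not overlap for 30 of the 32 tested genes (93.8%), against 62.8% of all tested genes. CFD values were the lower in 24 of them (34.6% over all genes) and the higher in 6 (28.3%).

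**Figure D1:**
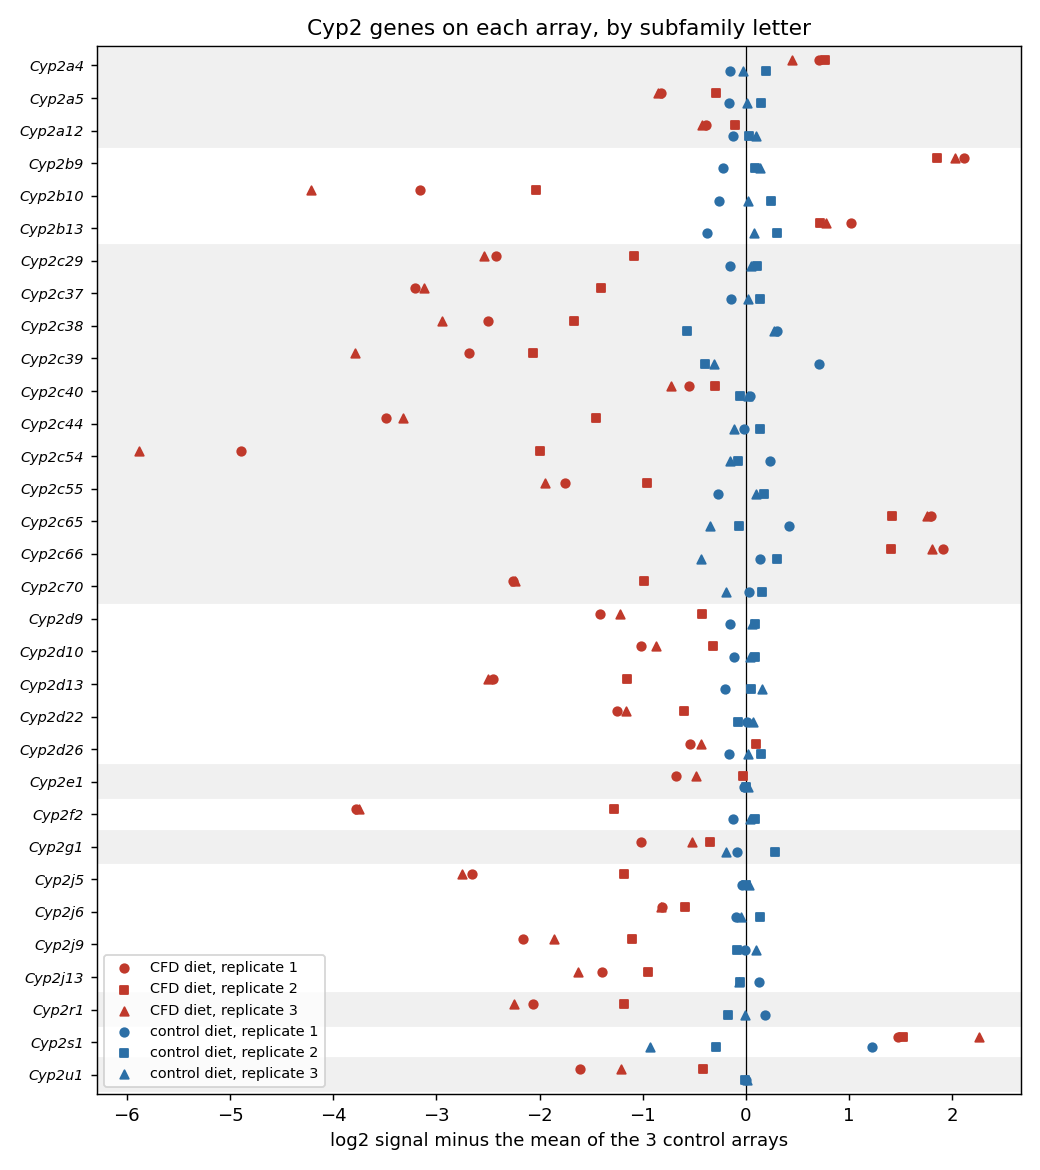
Log2 signal of the 32 tested Cyp2 genes on each array, minus the mean of the 3 control arrays, by gene and shaded by subfamily letter. Red symbols are CFD livers, blue symbols control livers, and the shape is the replicate number. The red symbols lie left of the blue ones for most genes and right of them for Cyp2a4, Cyp2b9, Cyp2b13, Cyp2c65, Cyp2c66 and Cyp2s1, and the red square (CFD replicate 2) lies closest to 0 in most genes that fell.

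The Cyp2b subfamily moved in both directions. Cyp2b9 and Cyp2b13, female-biased genes in mouse liver, rose, and Cyp2b10, the gene best known for its induction by phenobarbital through the receptor CAR, fell. The promoters of the 3 genes are shown because the pair that rose together is nearly identical there. The sequences are the 250 bases before each gene's start in RefSeq's GRCm38.p6, all on the plus strand, at chr7:26173159-26173408 for Cyp2b9, chr7:26061245-26061494 for Cyp2b13 and chr7:25897408-25897657 for Cyp2b10. Capitals mark bases without an identical partner in the alignment to Cyp2b13 (for Cyp2b9) or to Cyp2b9 (for the others).
Cyp2b9: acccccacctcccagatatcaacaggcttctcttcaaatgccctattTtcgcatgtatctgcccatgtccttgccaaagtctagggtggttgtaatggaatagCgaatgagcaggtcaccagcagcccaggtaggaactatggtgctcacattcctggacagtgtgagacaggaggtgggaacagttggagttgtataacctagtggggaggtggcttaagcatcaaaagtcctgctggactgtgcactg
Cyp2b13: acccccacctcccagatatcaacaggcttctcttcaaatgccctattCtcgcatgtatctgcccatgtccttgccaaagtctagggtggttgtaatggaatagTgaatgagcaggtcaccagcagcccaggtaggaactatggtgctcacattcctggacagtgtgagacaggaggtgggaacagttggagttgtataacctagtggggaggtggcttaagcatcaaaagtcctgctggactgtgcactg
Cyp2b10: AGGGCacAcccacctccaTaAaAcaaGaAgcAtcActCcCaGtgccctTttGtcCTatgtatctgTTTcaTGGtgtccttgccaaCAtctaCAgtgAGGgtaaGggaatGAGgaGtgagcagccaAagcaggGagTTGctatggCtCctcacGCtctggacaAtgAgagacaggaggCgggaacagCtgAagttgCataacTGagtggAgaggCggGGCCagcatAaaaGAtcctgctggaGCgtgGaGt
Cyp2b9 and Cyp2b13 were identical at 248 of 250 bases (99.2%), and Cyp2b10 matched Cyp2b9 at 182 of 260 aligned positions (70.0%).

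Cyp2b9 had a relative signal of 21.0, 17.5 and 19.8 in CFD livers, against 4.15, 5.16 and 5.32 in control livers. All 3 CFD values were above all 3 control values, with a log2 fold change of 2.00 ± 0.15 (standard error, as throughout) and an adjusted p of 0.000195 in limma. The second Cyp2b9 probe gave 1.58 ± 0.21. Cyp2b13 had a relative signal of 8.63, 7.01 and 7.32 in CFD livers, against 3.30, 5.25 and 4.51 in control livers. The groups did not overlap, and the log2 fold change was 0.83 ± 0.20 (limma, adjusted p = 0.0125).

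The probes of Cyp2b13 differed widely in size of change. Its second probe, A_52_P289091, which the files place at chr7:22992625-22992684 in build mm7, read 2.94, 2.09 and 1.86 in CFD livers, against 0.0418, 0.0285 and 0.0271 in control livers. It was well above background on 3 CFD arrays and 1 control array, and so passed the filter only through the CFD arrays. Its log2 fold change was 6.14 ± 0.24 in the fit of all probes, in which 22.1% of 23481 probes were higher, and that size rests on control signals mostly at background. With the mean of both probes Cyp2b13 had 3.49, and which of them reads Cyp2b13 alone was not tested.

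Cyp2b10 had a relative signal of 0.285, 0.623 and 0.137 in CFD livers, against 2.12, 3.01 and 2.58 in control livers. Each CFD value lay below each control value, and CFD replicate 3 was the lowest. On the log2 scale the change was -3.14 ± 0.51 (limma, adjusted p = 0.00331), and the second probe gave -1.85 ± 0.34. The change was -2.53 with normexp background correction.

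The 3 Cyp2a genes changed by less than 2-fold, and their probes did not all give the same call. Cyp2a4 is a female-biased steroid hydroxylase, and Cyp2a5 oxidizes coumarin and nicotine. Their promoters are shown because they differ at few bases while the genes' probes were called in opposite directions. The sequences lie at chr7:26306942-26307191 for Cyp2a4 and chr7:26835089-26835338 for Cyp2a5 in RefSeq's GRCm38.p6, both on the plus strand, and capitals mark bases without an identical partner in the other gene.
Cyp2a4: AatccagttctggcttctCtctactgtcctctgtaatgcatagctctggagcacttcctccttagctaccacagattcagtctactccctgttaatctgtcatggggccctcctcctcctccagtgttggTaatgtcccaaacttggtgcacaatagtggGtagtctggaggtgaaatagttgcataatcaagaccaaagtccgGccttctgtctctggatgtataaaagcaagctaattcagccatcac
Cyp2a5: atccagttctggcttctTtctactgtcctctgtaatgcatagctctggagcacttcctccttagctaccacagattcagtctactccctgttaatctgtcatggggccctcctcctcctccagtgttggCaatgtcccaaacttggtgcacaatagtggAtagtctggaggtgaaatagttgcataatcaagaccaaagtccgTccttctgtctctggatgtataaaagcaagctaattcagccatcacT
The promoters were identical at 245 of 251 aligned positions (97.6%).

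Cyp2a4 had a relative signal of 226, 235 and 188 in CFD livers, against 124, 158 and 135 in control livers, and the groups did not overlap. Its log2 fold change was 0.64 ± 0.15 (limma, adjusted p = 0.0123). The second Cyp2a4 probe gave -0.10 ± 0.15, with an adjusted p of 0.607 in limma's fit of all probes. The call on the first probe was lost when arrays were scaled to their median (0.44, adjusted p = 0.0625 in limma).

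Cyp2a5 had a relative signal of 224, 326 and 220.1 in CFD livers, against 355, 441 and 400.4 in control livers, without overlap. Its log2 fold change was -0.65 ± 0.19 (limma, adjusted p = 0.0261), and its second probe gave -0.33 ± 0.18 (adjusted p = 0.179 in limma). After quantile normalization the sign turned, to 0.064 (adjusted p = 0.623). The call was also lost without CFD replicate 1 (adjusted p = 0.0769 in limma), CFD replicate 3 (0.0865), control replicate 2 (0.0803) or control replicate 3 (0.0755).

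The files place the first Cyp2a4 probe at chr7:23212199-23212258 in mm7. The Cyp2a5 probes lie at chr7:23212221-23212279 and chr7:23212159-23212218, so they overlap that probe by 38 and 20 bases. These coordinates do not separate the genes, and the opposite calls of Cyp2a4 and Cyp2a5 remain uncertain. Cyp2a12, a steroid hydroxylase, had a log2 fold change of -0.31 ± 0.14 (adjusted p = 0.106 in limma), which did not pass the test, and its sign turned to 0.13 after quantile normalization. It was called when arrays were scaled to their median (-0.51, adjusted p = 0.0446 in limma) and without CFD replicate 2 (-0.41, adjusted p = 0.0306).

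**Figure D2:**
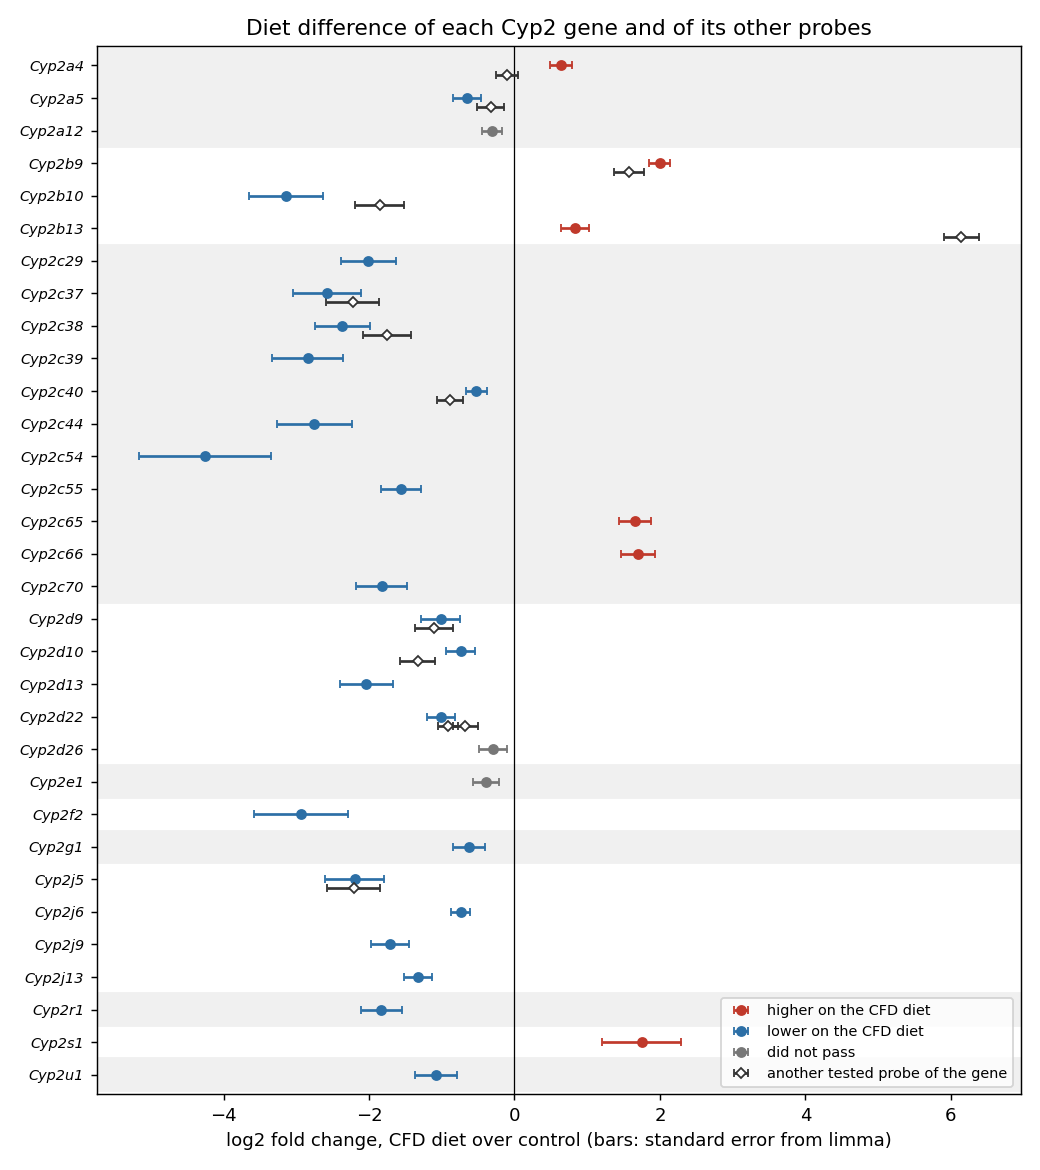
Log2 fold change, CFD diet over control diet, of each tested Cyp2 gene (filled circles) and of its other tested probes (open diamonds), with limma's standard error as bars. Red marks genes called higher, blue those called lower and grey those without a call. The open diamonds lie on the same side of 0 as the circle for every gene but Cyp2a4, and that of Cyp2b13 lies at 6.14.

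Most of the Cyp2c subfamily fell. In liver its enzymes act on arachidonic acid, retinoids, steroids and bile acids. All 11 genes on the array were called, 9 lower and 2 higher, with a median log2 fold change of -2.01. Over all tested genes, 51.1% were called, 27.4% lower and 23.7% higher. The 2 called higher, Cyp2c65 and Cyp2c66, passed the filter on dim probes only through the CFD arrays. Cyp2c54 had the largest fall of any Cyp2 gene.

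Cyp2c54 had a relative signal of 0.301, 2.23 and 0.151 in CFD livers, against 10.498, 8.46 and 8.01 in control livers. CFD replicate 2 was the highest of the CFD values and still below every control value. The log2 fold change of Cyp2c54 was -4.26 ± 0.91 (limma, adjusted p = 0.00860). Without CFD replicate 2 it was -5.39, and the smallest change on leaving out a single array was -3.44.

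Cyp2c29, an abundant hepatic enzyme that forms epoxides from arachidonic acid, had a relative signal of 36.7, 92.9 and 33.8 in CFD livers, against 176, 212 and 203 in control livers. The CFD values were all below the control values, with CFD replicate 2 again the highest of the 3. Its log2 fold change was -2.01 ± 0.38 (limma, adjusted p = 0.00557).

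The other genes of the subfamily that fell did so by very different amounts. Cyp2c39, an enzyme that oxidizes retinoic acid, had a log2 fold change of -2.84 ± 0.49. That value was -2.75 ± 0.52 for Cyp2c44 (Cyp2c23 in RefSeq), an arachidonic acid epoxygenase, -2.58 ± 0.47 for Cyp2c37 and -2.37 ± 0.38 for Cyp2c38. Without CFD replicate 2 it was -3.40 for Cyp2c44 and -3.16 for Cyp2c37, and with normexp background correction it was -1.06 for Cyp2c38. Cyp2c70, the enzyme by which mice make muricholic acids, had -1.83 ± 0.35, and Cyp2c55, a gene known for induction through the receptors PXR and CAR, -1.56 ± 0.28. Limma's adjusted p for these 6 genes lay between 0.00308 and 0.00586.

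Cyp2c40 fell least, with -0.53 ± 0.14 (limma, adjusted p = 0.0210). Its value after quantile normalization was -0.080 (adjusted p = 0.569 in limma). Its adjusted p in limma was 0.0559 without CFD replicate 1, 0.0681 without CFD replicate 3, 0.0653 without control replicate 1 and 0.0727 without control replicate 3.

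Cyp2c65 and Cyp2c66, genes known from the gut epithelium, were the Cyp2c genes with higher values on the CFD diet, at low signal. Cyp2c66 had a relative signal of 0.0778, 0.0549 and 0.0726 in CFD livers, against 0.0228, 0.0255 and 0.0154 in control livers. Cyp2c65 had 0.114, 0.0875 and 0.110 in CFD livers, against 0.0436, 0.0312 and 0.0257 in control livers. The groups did not overlap for either gene, and each was well above background on all 3 CFD arrays and on 1 control array.

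Cyp2c66 had a log2 fold change of 1.70 ± 0.23, and that of Cyp2c65 was 1.65 ± 0.22, both set against control signals mostly at background. With normexp background correction the values were 0.38 for Cyp2c66, which was then not called (adjusted p = 0.145 in limma), and 0.51 for Cyp2c65. Their promoters were identical at 208 of 279 aligned positions (74.6%).

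The Cyp2d subfamily was mostly lower. Of 5 genes, 4 fell and 1 was not called, where 27.4% of all genes were lower. The median log2 fold change of the subfamily was -1.01. Cyp2d13 had a relative signal of 1.46, 3.58 and 1.41 in CFD livers, against 6.92, 8.27 and 8.87 in control livers, the largest fall of the subfamily at -2.04 ± 0.36 (limma, adjusted p = 0.00459). Cyp2d9, a testosterone hydroxylase biased towards males, had 171, 339 and 196 in CFD livers, against 409.8, 484 and 476 in control livers. The groups were apart for both genes, and CFD replicate 2 was closest to the control arrays.

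The log2 fold change of Cyp2d9 was -1.02 ± 0.26 (limma, adjusted p = 0.0172). Its call was lost after quantile normalization (-0.33, adjusted p = 0.0800 in limma). Its adjusted p in limma was 0.0605 without CFD replicate 3, 0.0519 without control replicate 2 and 0.0541 without control replicate 3.

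Cyp2d22, often set beside the human drug-metabolizing enzyme CYP2D6, had a relative signal of 22.8, 35.9 and 24.2 in CFD livers, against 54.9, 51.5 and 57.1 in control livers. The groups did not overlap, and the log2 fold change was -1.01 ± 0.19 (limma, adjusted p = 0.00574). Its other probes were called lower as well, and its 3 probes ranged from -1.01 to -0.68.

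Cyp2d10 fell by less, with -0.74 ± 0.20 (limma, adjusted p = 0.0207) and -1.33 on its second probe. Its value was -0.071 after quantile normalization (adjusted p = 0.541 in limma), and its adjusted p was 0.0582 without CFD replicate 1, 0.0703 without CFD replicate 3, 0.0620 without control replicate 2 and 0.0649 without control replicate 3. Cyp2d26 did not pass the test, with -0.29 ± 0.20 (adjusted p = 0.250 in limma). It was called lower without CFD replicate 2 (-0.49, adjusted p = 0.0265 in limma) and higher after quantile normalization (0.29, adjusted p = 0.0446). A further 2 probes, outside the rule because the files name them differently, carry accessions that RefSeq lists as Cyp2d genes. Cyp2d12 had a log2 fold change of -0.93 ± 0.20 (limma, adjusted p = 0.00932) and Cyp2d34 one of -1.34 ± 0.31 (adjusted p = 0.0118).

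Cyp2e1, Cyp2f2 and Cyp2g1 are the sole members of their subfamilies on the array. Cyp2e1 oxidizes ethanol and acetaminophen in the hepatocytes around the central vein. It had a relative signal of 162, 253 and 185 in CFD livers, against 255, 259 and 262 in control livers. All CFD values lay below the control values, CFD replicate 2 by a narrow margin. The log2 fold change of -0.40 ± 0.18 did not pass (adjusted p = 0.106 in limma). Without CFD replicate 2 it was -0.58 and called (adjusted p = 0.00820 in limma). With arrays scaled to their median it was -0.60 and called (adjusted p = 0.0462), and after quantile normalization its sign turned, to 0.16 (adjusted p = 0.207).

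Cyp2f2, known for turning naphthalene into its toxic epoxide and, in liver, from hepatocytes near the portal vein, had a relative signal of 18.8, 106 and 19.2 in CFD livers, against 236, 275 and 264 in control livers. CFD replicate 2 stood well above the other CFD arrays and below all control arrays. On the log2 scale its change was -2.94 ± 0.65 (limma, adjusted p = 0.00977), and it was -3.76 without CFD replicate 2. Cyp2g1, best known from the olfactory mucosa, had 0.397, 0.633 and 0.561 in CFD livers, against 0.756, 0.982 and 0.704 in control livers. These values come from 1 of its 2 probes, as the other, at 0.00192 to 0.0100, failed the filter on dim probes. The groups of Cyp2g1 came close without overlap, and the log2 fold change was -0.63 ± 0.22 (limma, adjusted p = 0.0483). Leaving out any array but CFD replicate 2 ended that call, with limma's adjusted p at 0.112 without CFD replicate 1, 0.0873 without CFD replicate 3, 0.0858 without control replicate 1, 0.138 without control replicate 2 and 0.0679 without control replicate 3.

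All 4 tested Cyp2j genes fell, where 27.4% of all genes were lower. The subfamily is known for epoxidizing arachidonic acid. Cyp2j5, its best-studied member in mouse kidney and liver, had a relative signal of 10.9, 30.2 and 10.2 in CFD livers, against 66.9, 68.7 and 70.2 in control livers. The control values lay close together and far above the CFD values. The log2 fold change of Cyp2j5 was -2.20 ± 0.40 (limma, adjusted p = 0.00506), and the second probe gave -2.21.

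Cyp2j9 had a log2 fold change of -1.71 ± 0.27, Cyp2j13 one of -1.32 ± 0.19 and Cyp2j6 one of -0.74 ± 0.13. Limma's adjusted p for these lay between 0.00221 and 0.00430. Cyp2j13 was read by 1 of its 3 probes, as the others were not well above background on any array. The median of the 4 genes was -1.52.

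Cyp2r1, Cyp2s1 and Cyp2u1 are single genes that lie outside the large clusters of close relatives or at their edge. Cyp2r1, the main hydroxylase of vitamin D in liver, had a relative signal of 0.797, 1.46 and 0.700 in CFD livers, against 3.78, 2.95 and 3.30 in control livers. The groups were well apart, and the log2 fold change was -1.83 ± 0.28 (limma, adjusted p = 0.00283).

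Cyp2u1, a fatty acid hydroxylase, had 0.852, 1.95 and 1.12 in CFD livers, against 2.61, 2.58 and 2.63 in control livers. The groups did not overlap, and the log2 fold change was -1.08 ± 0.29 (limma, adjusted p = 0.0202). Its adjusted p in limma was 0.0666 without CFD replicate 3, 0.0525 without control replicate 1, 0.0520 without control replicate 2 and 0.0571 without control replicate 3.

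Cyp2s1, a gene known from epithelia and as a target of the aryl hydrocarbon receptor, rose on the 1 of its 2 probes that was tested. The other probe, at relative signals of 0.00174 to 0.00735, failed the filter on dim probes. The tested probe had a relative signal of 0.527, 0.545 and 0.906 in CFD livers, against 0.442, 0.156 and 0.0998 in control livers. The control values were spread widely, and control replicate 1 came close to the lower CFD values. The log2 fold change was 1.75 ± 0.54 (limma, adjusted p = 0.0325), and with the slide as a replicate block the call was lost (adjusted p = 0.0587). In limma the adjusted p was 0.0603 without CFD replicate 1, 0.0587 without CFD replicate 2, 0.103 without CFD replicate 3, 0.0894 without control replicate 2 and 0.0819 without control replicate 3, and the call held without control replicate 1, with a log2 fold change of 2.36.

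Each slide held 1 CFD and 1 control array with the same replicate number, so the difference could also be taken within a slide. The groups did not overlap for any called gene, which fixes the sign within a slide in advance. The 23 lower genes were therefore lower within each of the 3 slides and the 6 higher genes higher, which adds no further support. The size differed between slides. The median difference of the 23 lower genes was -2.25 on slide 1, -1.10 on slide 2 and -2.05 on slide 3, and for 21 of the 23 the difference was smallest on slide 2. CFD replicate 2 was the highest of the 3 CFD values for all 23 lower genes. For each of them the standard deviation of the log2 signal was larger in CFD livers, at 0.13 to 2.02, than in control livers, at 0.013 to 0.62. The share of all lower genes on the array with these traits was not computed, so they are not shown to be particular to the Cyp2 genes. Cyp2c54 spanned the widest range, with -5.12 on slide 1, -1.92 on slide 2 and -5.73 on slide 3. Among the higher genes the order varied. Cyp2b13 had 1.39 on slide 1, 0.42 on slide 2 and 0.70 on slide 3, and Cyp2s1 had 0.25 on slide 1, 1.81 on slide 2 and 3.18 on slide 3. The hepatocyte marker list also moved least on slide 2, with a mean log2 difference of -0.96 on slide 1, -0.59 on slide 2 and -1.17 on slide 3, and its part in the Cyp2 values was not tested. For P450 genes of families 1, 3 and 4 these means were -1.12, -0.50 and -1.24. Macrophage and cholangiocyte markers moved least on slide 1, and genes of the growth hormone signal on slide 3.

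**Figure D3:**
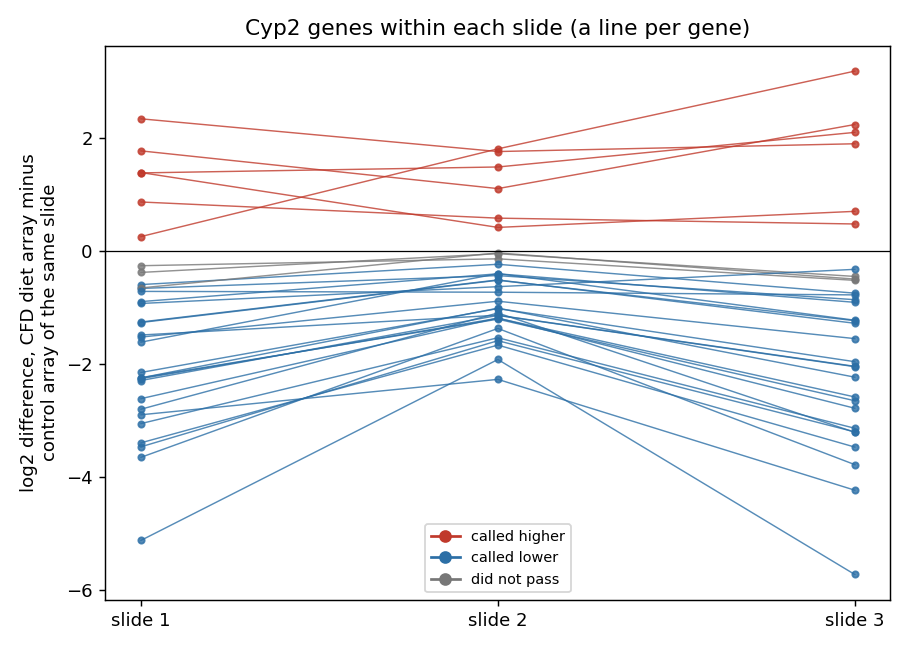
Log2 difference, CFD array minus the control array of the same slide, for the 32 tested Cyp2 genes, a line per gene and the slides along the x axis. Red lines are genes called higher, blue those called lower and grey those without a call. Most blue lines come nearest to 0 on slide 2, where their median is -1.10.

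Probes of a gene mostly moved together. In the fit of all probes, which called 49.7% of them, 10 of 12 genes with at least 2 tested probes had the same call on every probe, and the exceptions were Cyp2a4 and Cyp2a5, each with a second probe that did not pass. The share of such genes over the whole array was not computed. The 10 include Cyp2b13, whose second probe passed the filter only through the CFD arrays, and Cyp2d9, whose 2 probes overlap by 27 bases. Members of these clusters are close in sequence, and hybridization of a probe to a paralog's RNA was not tested.

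Genes that rose and genes that fell lay side by side in the cluster on chromosome 7. By the gene order of RefSeq, Cyp2s1, Cyp2b10, Cyp2b13 and Cyp2b9 follow each other on chromosome 7, and Cyp2b10 fell between Cyp2s1 and Cyp2b13, which rose. Further along, Cyp2g1, Cyp2a5 and Cyp2f2 were lower. Of the 12 Cyp2 genes on chromosome 7, 4 were higher, 5 lower, 2 not called and 1 not tested. On chromosome 19, Cyp2c65 and Cyp2c66, with higher values, are neighbours and lie between Cyp2c55 and Cyp2c29, which fell. Cyp2c65 and Cyp2c66 passed the filter only through the CFD arrays, so their calls are no support for a rise. The other members there, from Cyp2c39 to Cyp2c44, fell, giving 9 lower of 11, with Cyp2c65 and Cyp2c66 as the 2 called higher. Over all tested genes, 27.4% were lower and 23.7% higher. All 4 tested genes of the Cyp2j cluster on chromosome 4 and 4 of 5 Cyp2d genes on chromosome 15 were lower. Cyp2u1, on chromosome 3, was lower too.

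RefSeq's table held a promoter for 28 of the 34 genes, in 30 entries. Short motifs were searched on both strands in the 250 bases before each start. TATAAA, the letters of the promoter box that binds the basal machinery, was present in 46.7% of the member entries and in 12.4% of 32851 promoters in the table. It was present in 3 of 6 higher genes and in 8 of 17 lower genes with an entry. The higher genes with it were Cyp2a4 and, with calls that passed the filter only through the CFD arrays, Cyp2c65 and Cyp2c66. Counted from the start, the match began at -162 in Cyp2c65, -150 in Cyp2c66 and -128 in Cyp2j5. In the other genes it began between -39 and -19. CAAAGTCCA, a form of the site of the liver factor HNF4, was present in 3 of 30 member entries, against 0.384% of all promoters, and the only higher gene with it was Cyp2c65. TTCNNNGAA, the site of STAT5, the factor that carries the growth hormone signal, was present in 3.33% of member entries, against 7.02% of all. That was 1 entry, of Cyp2j11, a gene that was not tested. GTTAAT, part of an HNF1 site, was in 13.3%, against 6.43%, and TGTTTAC, a FOXA site, in 13.3%, against 3.17%. The 4 entries with TGTTTAC belong to 3 genes, all lower, as Cyp2c39 has 2 entries. Many of these promoters are copies of a common ancestor and not independent, and a match of letters shows no binding.

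Genes of electron transfer and of haem synthesis and breakdown were also mostly lower. The mitochondrial and erythroid genes among those named below are not particular to the Cyp2 enzymes. Of 8 electron transfer partners, 7 were lower (87.5%, against 27.4% of all genes), with a median log2 fold change of -0.91. Por, the P450 reductase, had -0.75 ± 0.16 (limma, adjusted p = 0.00891) and lost its call after quantile normalization (-0.30, adjusted p = 0.0895). The largest falls were -1.60 ± 0.28 for Cyb5b, an outer mitochondrial cytochrome b5, -1.38 ± 0.25 for Fdx1, the mitochondrial ferredoxin, and -1.22 ± 0.22 for Cyb5r3, a cytochrome b5 reductase. Of 16 genes of haem synthesis and breakdown, 10 were lower (62.5%) and 2 higher (12.5%, against 23.7% of all genes), with a median of -0.71. Alas1, the rate-limiting enzyme of haem synthesis in liver, had -1.46 ± 0.36 (limma, adjusted p = 0.0151). Its adjusted p in limma was 0.0501 without CFD replicate 1 and 0.0515 without CFD replicate 3. Alas2, its erythroid counterpart, had -1.61 ± 0.30, and Hebp1, a haem-binding protein, -1.45 ± 0.24. The 2 that rose were the haem oxygenases Hmox1, by 1.89 ± 0.17, and Hmox2, by 0.59 ± 0.11, which lost its call when arrays were scaled to their median (0.39, adjusted p = 0.0700 in limma).

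Of 29 nuclear receptors and liver transcription factors known to act on Cyp2 genes, 25 were lower and 2 higher, with a median of -0.98. These shares were 86.2% and 6.9%, against 27.4% and 23.7% of all genes. Nr1i3 encodes CAR and Nr1i2 encodes PXR, the receptors that induce P450 genes on contact with drugs. Nr1i3 had a relative signal of 4.73, 6.63 and 3.20 in CFD livers, against 9.88, 10.2 and 9.98 in control livers, a log2 fold change of -1.11 ± 0.26 (limma, adjusted p = 0.0116). Nr1i2 had 2.04, 2.00 and 1.85 in CFD livers, against 4.08, 3.86 and 5.05 in control livers, a log2 fold change of -1.13 ± 0.14 (limma, adjusted p = 0.00130). The groups did not overlap for either receptor. Hnf4a, a nuclear receptor that maintains hepatocyte genes, had -1.004 ± 0.19.

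The largest falls on that list were -2.34 ± 0.62 for Dbp and -1.79 ± 0.37 for Tef, both clock-controlled factors, and -1.85 ± 0.59 for Onecut1. Onecut1 read 16.5 on control replicate 2, beside 3.28 and 3.63 on the other control arrays, and its change was -1.10 without that array (limma, adjusted p = 0.00510). The call of Onecut1 was lost without any single CFD array, with limma's adjusted p between 0.0782 and 0.102. That of Dbp was lost without CFD replicate 3 (0.0587) or control replicate 2 (0.0552), and its change was -3.04 without CFD replicate 2 and -1.71 without CFD replicate 1. The time of day of the collection is not given in the sources used here. The 2 that rose were Esr1, the oestrogen receptor, by 0.63 ± 0.20, and Nfe2l2, the regulator of oxidative stress genes, by 0.45 ± 0.13. Neither was called when arrays were scaled to their median, with limma's adjusted p at 0.0893 for Esr1 and 0.244 for Nfe2l2. The call of Esr1 was also lost without any array but CFD replicate 2 (limma's adjusted p between 0.0538 and 0.101) and with the slide as a replicate block (0.0723), and that of Nfe2l2 without CFD replicate 1, CFD replicate 3, control replicate 2 or control replicate 3 (between 0.0632 and 0.0931).

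Growth hormone sets the sex bias of several Cyp2 genes through STAT5B. The part of this signal in the Cyp2 values was not tested. Of 11 tested genes of the growth hormone signal, 4 were lower (36.4%, against 27.4% of all genes), 1 higher (9.09%, against 23.7%) and 6 not called. The growth hormone receptor Ghr had -2.55 ± 0.48 (-3.15 without CFD replicate 2), and Igfals and Igf1, hepatic products that growth hormone induces, had -2.38 ± 0.38 and -1.34 ± 0.27. Socs2 and Cish, feedback inhibitors that growth hormone also induces, did not pass the test, with 0.21 ± 0.70 and -0.91 ± 0.44 (limma, adjusted p = 0.820 and 0.120). Control replicate 2 stood apart for both. For Socs2 it read 5.51, beside 0.856 and 0.867 on the other control arrays and 2.05, 1.53 and 2.02 in CFD livers. For Cish it read 3.15, beside 0.867 and 1.74 on the other control arrays and 0.880, 0.789 and 1.03 in CFD livers. Stat5b had -0.72 ± 0.11 (limma, adjusted p = 0.00304). Socs3, an inhibitor of cytokine signals, rose by 0.96 ± 0.14. Bcl6, a repressor of female-biased genes, did not pass the test, with -0.48 ± 0.23 (adjusted p = 0.127 in limma), and Cux2, a factor of female liver, was not well above background on all arrays of either group and was not tested.

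Enzymes that take up the products of P450 reactions were mostly lower, with 13 of 19 tested lower (median -0.97). That was 68.4%, against 27.4% of all genes. Ephx1, the microsomal epoxide hydrolase, had -1.13 ± 0.22, and Ephx2, the soluble one that clears epoxides of arachidonic acid, -1.25 ± 0.23 (-0.61 after quantile normalization). The largest falls were those of the glutathione transferase Gstt1 with -1.85 ± 0.39 and of the glucuronosyltransferases Ugt2b5 with -1.61 ± 0.27 and Ugt1a1 with -1.34 ± 0.15. P450 genes of families 1, 3 and 4 gave 16 lower and 3 higher of 21 tested, with a median of -1.19 beside -1.05 for the Cyp2 genes. Their shares were 76.2% lower and 14.3% higher, against 27.4% and 23.7% of all genes. Cyp4f14 fell most, with -3.37 ± 0.74 (-4.31 without CFD replicate 2), followed by Cyp1a2 with -2.70 ± 0.46 and Cyp4f13 with -1.78 ± 0.31. Cyp4f16 rose by 1.69 ± 0.14 and Cyp4a14 by 0.47 ± 0.13. Cyp1b1 had 2.88 ± 0.27 (0.93 with normexp), but it was well above background on 1 control array and passed the filter only through the CFD arrays. The call of Cyp4a14 was lost without CFD replicate 3 (adjusted p = 0.0556 in limma), control replicate 1 (0.0628) or control replicate 2 (0.0821), when arrays were scaled to their median (0.249), with the slide as a replicate block (0.0673) and with eBayes' trend and robust options (0.0544).

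Hepatocyte markers, which check the labelled tissue, were well above background in every array. Of 22 tested, 17 were lower (77.3%, against 27.4% of all genes), with a median log2 fold change of -0.81. Their summed relative signal was 3940 to 6400 on CFD arrays, against 6600 to 8410 on control arrays. The largest falls were -1.77 ± 0.31 for Tdo2, -1.71 ± 0.31 for Hpd and -1.48 ± 0.22 for Plg, while Alb, albumin, had -0.49 ± 0.26 and did not pass (adjusted p = 0.162 in limma). Without single arrays, between 10 and 21 hepatocyte markers were called lower, with 11 without CFD replicate 1, 10 without CFD replicate 3, 11 without control replicate 2 and 11 without control replicate 3. After quantile normalization it was 8.

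Genes of pericentral hepatocytes outside the Cyp2 family were lower in 10 of 16 tested (62.5%, against 27.4% of all genes), with a median of -0.64. The largest falls there were in Cyp1a2, Cyp27a1 (-2.57 ± 0.45) and Cyp7a1 (-1.82 ± 0.35), Cyp27a1 and Cyp7a1 being enzymes of bile acid synthesis. Genes of periportal hepatocytes were lower in 13 of 20 (65%) and higher in 4 (20%, against 23.7% of all genes), with a median of -1.06. Hsd17b6 fell most there, with -3.68 ± 0.78 (-4.66 without CFD replicate 2 and -3.09 without CFD replicate 1), and Igfbp1 rose most, by 1.498 ± 0.19.

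Markers of other liver cells differed in the share called, where 23.7% of all genes were higher and 27.4% lower. Cholangiocyte markers were higher in 11 of 12 tested, with summed relative signals of 91.7 to 127 on CFD arrays, against 6.80 to 9.96 on control arrays. Among these markers, Cftr, Cldn4 and Ggt1 were not well above background on any control array. Of the higher markers, 5 of 11 for cholangiocytes, 1 of 13 for stellate cells and myofibroblasts and 3 of 10 for macrophages passed the filter only through the CFD arrays. Stellate cell and myofibroblast markers were higher in 13 of 14, with sums of 208 to 242 on CFD arrays, against 79.5 to 90.6 on control arrays. Macrophage markers were higher in 10 of 15 and lower in 2, with sums of 420 to 569 on CFD arrays, against 166 to 234 on control arrays. Endothelial markers were higher in 1 of 12 and lower in 6, with sums of 35.4 to 42.6 on CFD arrays, against 51.2 to 55.7 on control arrays. Lymphocyte markers were higher in 1 of 12, lower in 2 and not called in 9, with sums of 3.82 to 5.58 on CFD arrays, against 2.41 to 3.51 on control arrays. The part of these markers in the Cyp2 values was not tested.

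**Figure D4:**
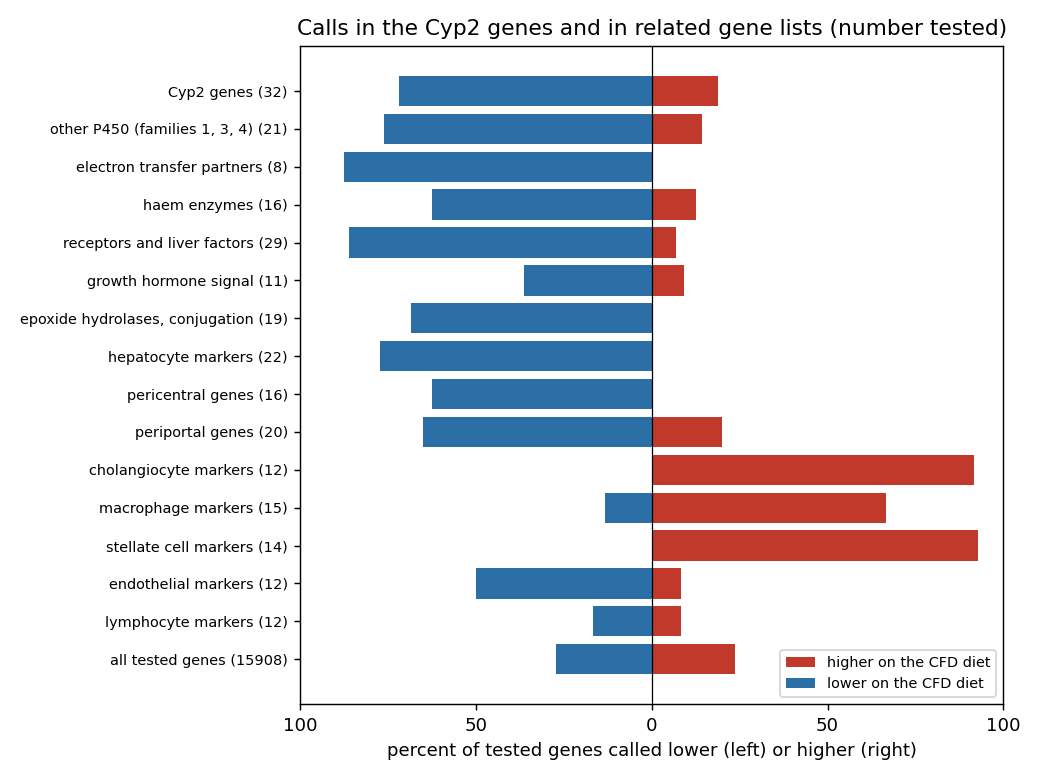
Percent of the tested genes of each list that were called lower (bars to the left, blue) or higher (bars to the right, red) on the CFD diet, with the number tested beside each name. The Cyp2 genes show 71.9% lower and 18.8% higher, beside 27.4% and 23.7% of all tested genes, and the longest bars to the right are those of cholangiocyte and stellate cell markers.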

How the data were processed

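The deposited scanner files hold an intensity for every spot, from which Agilent's Feature Extraction software had subtracted background (version 10.5.1.1 per the file headers, 10.7 per the submitters' processing notes). The deposited value table, linear intensity values with medians of 72.67, 73.88 and 80.59 in the CFD columns and 67.98, 61.49 and 67.63 in the control columns, was only an alternative. Each of its columns matched another replicate of its own group by rank (at least 0.9999), so its replicate numbering is unsettled, no centring was seen, and 0 columns were left unmapped.

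Signals were log2-transformed and scaled by subtracting each array's 75th percentile. Control spots and outliers were dropped, and repeated spots averaged. Testing required a probe to stand well above background on all 3 arrays of a group. A gene was its tested probe with the highest mean, giving 15908 genes, 38 with a missing value. The groups were set against each other in limma 3.58.1 (R 4.3.3, eBayes), with Benjamini-Hochberg adjustment over all tested genes, in code tested on simulated data. Names came from RefSeq's GRCm38.p6 table: 22951 probes matched an accession, 6659 a current and 3109 an older symbol, and 8455 kept their deposited name. Probe coordinates are those of the files (mm7). Promoters were aligned with Biopython 1.88.

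The members, lists and tests were chosen with earlier results of these data known. Array values are given for the largest called rise and fall of each subfamily and for textbook members, and lists tied to P450 function by their 3 largest rises and falls and by fixed regulators and partners. Deviations of same-numbered arrays correlated at 0.174, -0.0686 and -0.0105, so the numbers do not pair the samples by that measure, though they share a slide. Alternatives were other scalings, normexp, other filters on dim probes, the slide as a block, eBayes with trend and robust, the value table, the mean of a gene's probes and leaving out each array. A marker that enters the list counts is not reported by name here.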

Additional observations from a re-analysis of the deposited data

How the results depend on the processing

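Over 15 alternative settings, 17 of the 23 lower genes and Cyp2b9 among the higher kept direction and call in every setting. Cyp2c65 passed the filter only through the CFD arrays and was not tested where all 6 arrays had to be above background, so its calls elsewhere show no stability. The exceptions were Cyp2a5, Cyp2c40, Cyp2d9, Cyp2d10, Cyp2g1 and Cyp2u1 among the lower and Cyp2a4, Cyp2b13, Cyp2c66 and Cyp2s1 among the higher genes. The setting without a filter on dim probes moved the counts most, with 3 Cyp2 genes higher and 17 lower, and 2460 of all genes lower, against 4353. With it Cyp2b13 lost its call (adjusted p = 0.0525 in limma). By construction, that setting adds dim probes to the fit and to the adjustment. Leaving out single arrays gave 17 to 26 Cyp2 genes lower and 5 or 6 higher, a Cyp2 median of -1.36 to -0.85, and 2770 to 4954 of all genes lower. The lowest counts over all genes were 2770 without control replicate 3 and 2886 without CFD replicate 3, where fewer arrays entered the fit. Scaling to the median gave 5 higher and 25 lower Cyp2 genes, and 2934 higher and 5814 lower genes in all. Quantile normalization gave 7 and 19, and 4214 and 4207 in all, against 3775 and 4353. It turned the sign of Cyp2a5 (0.064), Cyp2a12 (0.13), Cyp2e1 (0.16) and Cyp2d26 (0.29), and the cause was not tested. Apart from that setting, the second Cyp2a4 probe had -0.10 in the fit of all probes and was not called, unlike the first. With the slide as a replicate block, 5 Cyp2 genes were higher and 23 lower, Cyp2s1 losing its call among the Cyp2 genes and Esr1 and Cyp4a14 among the other named genes, and 3525 and 3793 genes were called in all. Of the hepatocyte markers, 8 were lower after quantile normalization, against 17. Signals near background limit Cyp2c65, Cyp2c66, Cyp1b1 and the second Cyp2b13 probe, and Cyp2c38 had -1.06 with normexp, against -2.37.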
